A study of Urocitellus parryii with 24 samples.

Results

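TARDBP and FUBP1 are genes for nucleic acid binding proteins, and their mRNA levels were compared here in the liver of the Arctic ground squirrel (AGS, Urocitellus parryii) over the hibernation cycle. They are 2 of the 1329 genes in the study's list of genes that differed between torpor, arousal episodes, and summer. Both were selected on their measured mean levels in the 3 states, on these same arrays, so the differences between states are described below without a test. The deposited array files hold probe numbers and no gene symbols. A symbol was given to the probe whose mean levels in the 3 states equal those of the study's list, within 1e-04. TARDBP fell on probe gene4582, 1.88e-06 from its listed means with the next closest probe 0.236 away, and FUBP1 on probe gene3041, 3.51e-07 away with the next at 0.0595. All 1329 genes found a probe in this way.

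TARDBP encodes TDP-43, a protein with a pair of RNA recognition motifs that binds GU-rich RNA and acts in splicing, in mRNA stability, and in transport of RNA out of the nucleus. It also binds its own transcript and limits its own level, and it can join stress granules, which hold mRNA while translation is paused. FUBP1 encodes the far upstream element binding protein, which binds single-stranded DNA upstream of the MYC gene through its KH domains and activates transcription there, and which also binds RNA. In liver, FUBP1 is best known for its high level in hepatocellular carcinoma. The current AGS annotation in RefSeq lists both as protein-coding genes.

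Liver RNA of 24 animals was labelled with radioactive phosphorus and hybridized to nylon membranes carrying 9600 spotted cDNA clones, 1 membrane per animal. The 4 early torpor animals were taken in the first part of a torpor bout and the 5 late torpor animals near its end, in the cold, torpid state. The 4 early arousal animals were taken soon after body temperature had risen again on its own, and the 4 late arousal animals some hours later in the same warm episode. The 7 summer active animals, called post-reproductive (P) in the study, were warm, molting, and past breeding, and served as the non-hibernating control. All were wild-trapped animals held in captivity, all winter animals were without food through hibernation and kept under short days, and winter and summer animals therefore differed in food and light as well. Torpid animals were killed without anesthesia and all others under isoflurane, so that anesthesia and torpor cannot be told apart. Early and late torpor are pooled below as torpor (T, n = 9) and early and late arousal as arousal (A, n = 8).

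The names of the scanner files carry the code A1 or A2, which is read here as the membrane set. No label explains the code, and every value below that is given by membrane set rests on this reading. Every torpid animal (9), all but 1 of the aroused animals (7), and 2 summer animals were on A1, while A2 carried the other 5 summer animals and late arousal replicate 2. Median spot intensity per array was 54.1 to 132 units over a median background of 13.3 to 19.9, with a middle value of 79.5 in T, 108 in A, and 76.1 in P. Of the 15 hepatocyte markers looked for, 6 had a named probe, and their log2 levels lay between 3.69 and 9.80 above the array median on all arrays, as for liver. Of 30 markers of other liver cells and blood, 5 had a named probe (LYZ, DES, RELN, SOX9, and HBA2), and none of the 5 endothelial markers did. A probe has a name here only through the study's list of changed genes. A marker without one is not in that list, and may still be on the array.

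Both members of the pair stood lower in torpor than in arousal or summer, TARDBP by close to 1 on the log2 scale and FUBP1 by less than 0.5. In this report the level of a gene is log2 of its background-subtracted spot signal over the median of that signal on the array, so 0 is the middle spot of the array and a difference of 1 is a factor of 2. Mean TARDBP level was -1.99 ± 0.33 (SD, n = 9) in T, -1.12 ± 0.59 (n = 8) in A, and -1.05 ± 0.45 (n = 7) in P. Mean FUBP1 level was -0.51 ± 0.22 in T, -0.17 ± 0.34 in A, and -0.10 ± 0.20 in P. In the liver as a whole, fewer cells with a transcript and less of it per cell cannot be told apart.

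**Figure D1:**
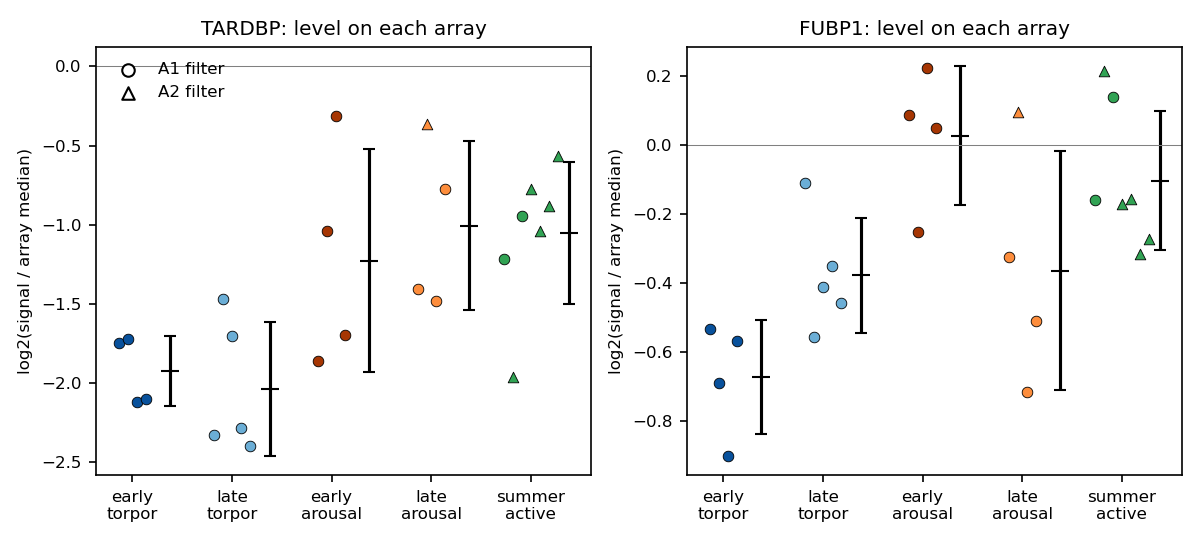
Log2 level of TARDBP (left) and FUBP1 (right) on each of the 24 arrays, by status group; circles are A1 and triangles A2 membranes, and the bars beside the points are the group mean ± SD. The 9 torpor arrays hold TARDBP between -2.40 and -1.47 and FUBP1 between -0.90 and -0.11.

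TARDBP was low on all torpor arrays. Its level on the 4 early torpor arrays was -1.75, -1.72, -2.12, and -2.10. On the 5 late torpor arrays it was -2.33, -1.47, -1.70, -2.29, and -2.40. No torpor array rose above -1.47, while the arrays of the warm states were spread over a much wider range.

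In early arousal the TARDBP level was -1.86, -1.04, -0.32, and -1.70. In late arousal it was -1.41, -0.36, -1.48, and -0.78. The 7 summer active arrays ran from -1.96 to -0.56, with a median of -0.95. Thus 3 of the 8 arousal arrays and 1 of the 7 summer arrays lay inside the torpor range, and the remaining warm arrays were above it.

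Compared array by array, 5 of the 9 T arrays lay below the lowest P array and all 9 below the P mean, and 6 of the 7 P arrays lay above the highest T array. Against arousal, 5 of the 9 T arrays lay below the lowest A array and all 9 below the A mean, and 5 of the 8 A arrays lay above the highest T array. The groups overlapped in both comparisons. Over all probes, 0.371 percent had every T array below every P array and 0.0423 percent every T array below every A array. Arousal and summer overlapped too, with no A array of TARDBP below the lowest P array, and 0.795 percent of all probes had every A array below every P array.

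The fitted TARDBP difference was -0.93 (SE 0.23) for T minus P, or 0.524 times the summer level, and -0.87 (SE 0.22) for T minus A, or 0.547 times the arousal level. For A minus P it was -0.06 (SE 0.23). Both torpor differences share the same 9 torpor arrays and are not independent of each other. Only 0.333 percent of probes fell further than TARDBP between A and T, and 2.30 percent between P and T. With normexp background correction and an offset, described below, these shares were 7.44 and 7.24 percent. The ranks are of the values by which the gene was chosen and serve as a description. As a share of all probes, 9.86 percent were called between T and P by limma at an adjusted p under 0.05, 0.469 percent between T and A, and 8.47 percent between A and P. These shares are printed as background, and nothing is read from them for TARDBP and FUBP1, which the study chose by this contrast.

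FUBP1 moved over a narrower range. Its level on the 4 early torpor arrays was -0.53, -0.69, -0.90, and -0.57. On the 5 late torpor arrays it was -0.11, -0.56, -0.41, -0.35, and -0.46. Late torpor replicate 1 was the highest torpor array, and the lowest level of all 24 arrays was in early torpor.

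In early arousal the FUBP1 level was 0.09, -0.25, 0.22, and 0.05, and in late arousal -0.33, 0.10, -0.72, and -0.51. The 7 summer active arrays ran from -0.32 to 0.21, with a median of -0.16. Early arousal replicate 2, at -0.25, and 3 of the 4 late arousal arrays fell inside the torpor range of -0.90 to -0.11.

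For FUBP1, 8 of the 9 T arrays lay below the lowest P array and all 9 below the P mean, but only 2 of the 7 P arrays lay above the highest T array. Against arousal, 1 of 9 T arrays lay below the lowest A array and 8 of 9 below the A mean, and 4 of 8 A arrays lay above the highest T array. The groups overlapped in both comparisons. The fitted difference was -0.41 (SE 0.15) for T minus P, -0.34 (SE 0.14) for T minus A, and -0.07 (SE 0.15) for A minus P. Torpor thus held 0.755 times the summer level and 0.790 times the arousal level. Here 15.1 percent of probes fell further between P and T and 5.79 percent between A and T.

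Over the 5 groups, the order of mean TARDBP level from low to high was late torpor (-2.04 ± 0.42), early torpor (-1.93 ± 0.22), early arousal (-1.23 ± 0.71), summer active (-1.05 ± 0.45), and late arousal (-1.01 ± 0.53). The last 3 differed from each other by less than their SDs. The step from late torpor to early arousal, which spans rewarming, was 0.81 (SE 0.31), and it fell to 0.50 without early arousal replicate 3, the highest TARDBP array. With normexp correction and an offset it was 0.0561 (SE 0.13). Early torpor minus late arousal, the step into torpor, was -0.92 (SE 0.33).

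For FUBP1 the order was early torpor (-0.67 ± 0.17), late torpor (-0.38 ± 0.17), late arousal (-0.36 ± 0.35), summer active (-0.10 ± 0.20), and early arousal (0.03 ± 0.20). The largest gap between neighbours was the one between early and late torpor, while late torpor and late arousal differed by far less than their SDs. Early torpor minus summer active was -0.57 (SE 0.17), and late torpor minus summer active was -0.27 (SE 0.16). Early arousal minus late torpor was 0.40 (SE 0.18). Early torpor minus late arousal was -0.31 (SE 0.19), and -0.15 without late arousal replicate 2, the 1 winter array on an A2 membrane.

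Whether either gene changed within a torpor bout or within an arousal episode was tested, since the listing used only the pooled states. No probe on the array was called between late and early torpor or between late and early arousal (0 percent, limma), with 458 and 748 probes at an unadjusted p under 0.05. For TARDBP, late minus early torpor was -0.11 (95% interval -0.75 to 0.52, limma adjusted p = 0.998; exact permutation test, two-sided p = 0.667). Late minus early arousal was 0.22 (-0.45 to 0.89, limma adjusted p = 0.900; exact permutation p = 0.657).

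For FUBP1, late minus early torpor was 0.29 (95% interval -0.08 to 0.67, limma adjusted p = 0.998), and the exact permutation test gave a two-sided p of 0.0317, where 0.00794 is the smallest that 4 against 5 arrays allow. Late minus early arousal was -0.39 (-0.79 to 0.0038, limma adjusted p = 0.647; exact permutation p = 0.114). These are among 6 exact tests made on the pair, and the permutation p-values are not adjusted. The early-late differences of FUBP1 thus had opposite signs in torpor and in arousal, and the difference between them was 0.69 (SE 0.26), with an unadjusted limma p of 0.0156 and an adjusted p of 0.720. For TARDBP that interaction was -0.34 (SE 0.45, limma adjusted p = 0.946). No early-late change of either gene passed the test over all probes, and the interaction was called for 0 percent of probes (581 at an unadjusted p under 0.05).

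Membrane set runs with season on these arrays, since 5 of 7 summer animals and no torpid animal were on A2. Within status groups, A2 minus A1 was 0.32 for TARDBP (95% interval -0.31 to 0.95, limma adjusted p = 0.513) and 0.13 for FUBP1 (-0.25 to 0.50, adjusted p = 0.682), where 17.8 percent of all probes were called. The TARDBP difference rested mostly on late arousal replicate 2 and was 0.04 without it. Without it FUBP1 turned to -0.13. A2 membranes then remain only in the summer group, so both values are the difference within summer and no separate result. In that group, the 2 arrays on A1 had mean levels of -1.08 for TARDBP and -0.01 for FUBP1, and the 5 on A2 had -1.04 and -0.14 (exact permutation test, two-sided p = 0.762 and p = 0.571).

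With the membrane set as a block in the fit, TARDBP was at -0.68 (SE 0.30) for T minus P and -0.83 (SE 0.22) for T minus A, and FUBP1 at -0.38 (SE 0.20) and -0.34 (SE 0.15). On the 18 A1 membranes alone, TARDBP was at -0.91 and -0.76 and FUBP1 at -0.50 and -0.30. Both genes therefore stayed lower in torpor on membranes of 1 set, although only 2 summer arrays remain there. The A minus P value of TARDBP, near 0 in the plain fit, turned to 0.14 with the block. The prefix of the animal number, read from the sample titles, also runs with season. Most winter animals carry 04, and summer active replicate 7 is the only summer animal that does. With the prefix as a block, 524 probes were called in T minus P, against 946 in the plain fit. In A minus P it was 243 against 813.

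The TARDBP spot is dim, and its values in torpor lie near the background. Its median signal was 22.0 to 43.3 intensity units in T, 38.0 to 82.7 in A, and 22.4 to 63.4 in P, over a local background of 6.80 to 19.1. The signal exceeded 2 times the local background on 21 of 24 arrays, and the other 3 were torpor arrays, at 1.72, 1.81, and 1.88 times. On the torpor arrays the spot ranked at a median percentile of 9.12 of all spots, against 20.0 in A and 26.2 in P. FUBP1 was brighter, with 46.1 to 135 units and at least 3.02 times the background on every array, and neither spot was marked empty by the scanner software.

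**Figure D2:**
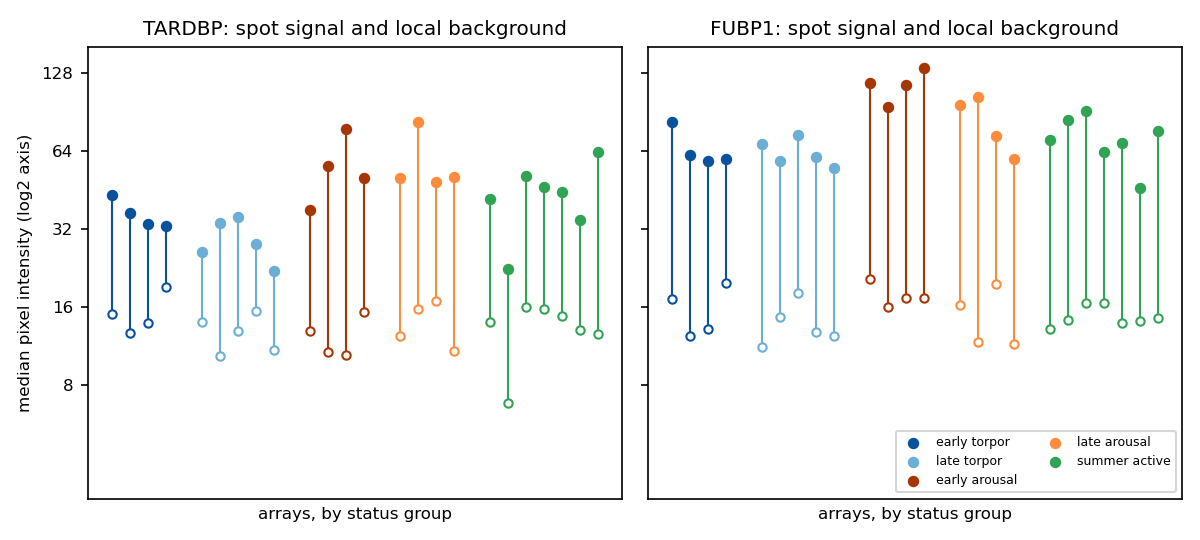
Median pixel intensity of the spot (filled) and of its local background (open) on each array for TARDBP (left) and FUBP1 (right), in scanner units on a log2 axis, in order of status group. The TARDBP spot reaches 22.0 to 43.3 units in torpor, close above its background, and the FUBP1 spot stays at least 3.02 times above background.

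The TARDBP difference was smaller with normexp background correction, and the larger part of that change came with the added offset. With normexp correction and an offset of 50, TARDBP was at -0.32 for T minus P and -0.17 for T minus A, and FUBP1 at -0.22 and -0.17. With normexp and no offset, an alternative added after the data were seen, TARDBP was at -0.74 and -0.59 and FUBP1 at -0.38 and -0.32. Over 35 alternative settings, including leaving out each array in turn, both differences were below 0 for both genes in all 35, from -1.09 to -0.32 for TARDBP and -0.50 to -0.22 for FUBP1 in T minus P. In T minus A they ran from -0.98 to -0.17 for TARDBP and from -0.45 to -0.17 for FUBP1. Scaling by the upper quartile in place of the median moved the median of all probes in T minus A from 0.05 to -0.06.

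**Figure D3:**
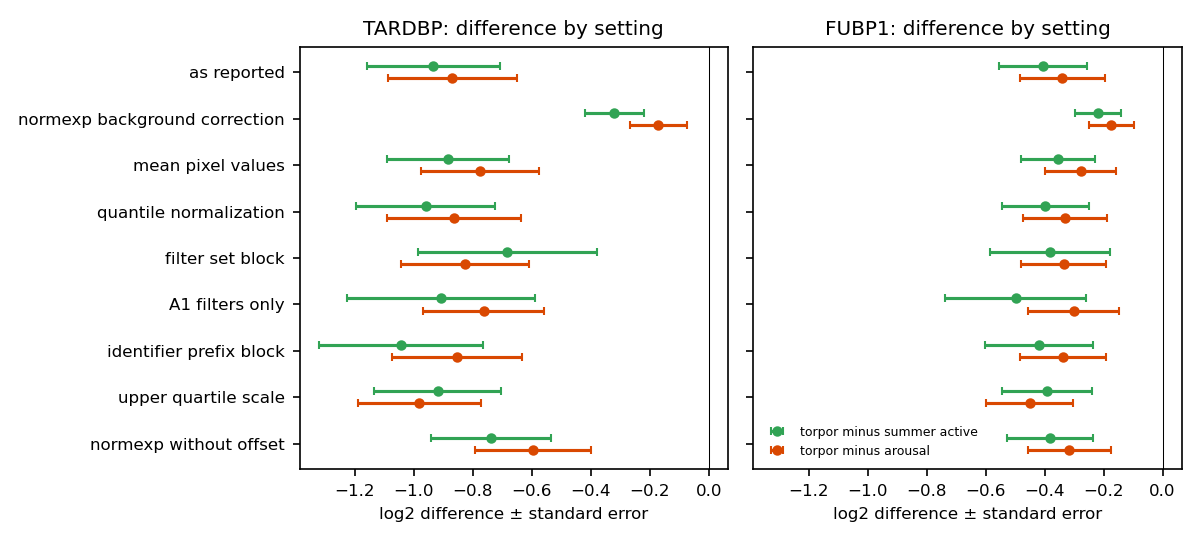
Fitted log2 difference ± standard error of TARDBP (left) and FUBP1 (right), for torpor minus summer active (green) and torpor minus arousal (orange), as reported and under 8 other settings. All points lie below 0, and the TARDBP points move closest to 0, at -0.32 and -0.17, under normexp correction with an offset.

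Around the TARDBP spot, the 8 adjoining spots had a median difference of -0.26 for T minus P and 0.00071 for T minus A, and 3 of the 8 were lower in torpor in both. Around FUBP1 the medians were -0.05 and -0.12, with 4 of 8 lower in both. The TARDBP differences of -0.93 and -0.87 lay outside the range of its neighbours, -0.64 to 0.69 and -0.41 to 0.62. For FUBP1 the same held, with neighbours at -0.24 to 0.24 and -0.17 to 0.33. Both genes were chosen by these differences and the neighbouring spots were not, so the contrast is a description only. A local effect of the membrane was not tested.

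Among the other-cell markers, DES, a filament protein of stellate cells, and SOX9, a bile duct transcription factor, were lower in torpor than in summer, with differences of -1.19 (limma adjusted p = 0.0108) and -0.51 (limma adjusted p = 0.0385). The other stellate marker, RELN, stood the other way, at 0.41 for T minus P and 0.64 for T minus A, and RELN, LYZ, and HBA2 were not called between T and P. Of the 5, 0 were called between T and A. Over all probes, 9.86 percent were called between T and P and 0.469 percent between T and A. Among the 1329 listed genes these shares were 47.3 and 2.33 percent. All markers with a named probe, also those of hepatocytes, come from the study's list of genes that changed on these arrays. Their calls are therefore not independent evidence, and the share for the listed genes is the closer background. No values with the membrane set as a block are given for the markers. Summed over the 5 markers, the signal was 5.49 to 18.1 times the array median in T, 4.93 to 9.46 in A, and 7.90 to 22.9 in P. LYZ was the brightest of them, at a mean level of 2.60 in T, and DES the dimmest, at -2.68. Of the 6 hepatocyte markers, 2 were called between T and P. APOB was higher, by 0.71 (limma adjusted p = 0.00750), and FGB lower, at -1.28 (limma adjusted p = 0.0132). APOB was also higher in T than in A, by 0.86 (limma adjusted p = 0.0110). The part of other cells in the TARDBP and FUBP1 levels was not tested.

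Within status groups, no relation between TARDBP and FUBP1 from animal to animal was detected. After subtraction of the group means, Pearson's r over the 24 arrays was -0.0092 (p = 0.971, 100000 permutations within groups) and Spearman's rho was -0.097 (p = 0.697). Without the 2 arrays farthest from the median r was 0.06. On summer active replicate 2 they stood at opposite ends, with the lowest TARDBP level of the group, -1.96, and the highest FUBP1 level, 0.21. This was 1 of 7 such relations, which also set each gene against CIRBP, against the array median, and against its own local background, and in which the lowest adjusted p was 0.436. That value belonged to FUBP1 and CIRBP, with r = -0.52 (permutation p = 0.0623), rho = -0.42 (p = 0.0711), and r = -0.15 without the 2 farthest arrays. On A1 membranes alone, TARDBP and its local background had an r of -0.60 (permutation p = 0.0274), against 0.05 on all arrays. That p is not adjusted for the 7 relations, and the level itself has this background subtracted.

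The named genes whose levels followed each member most closely over the 24 arrays included heat shock proteins and their helpers. For TARDBP the 5 highest of 1311 were HSPA8, the constitutive HSC70 chaperone (r = 0.76), KBTBD2, a substrate adaptor for ubiquitin ligation (r = 0.75), DERL2, which takes part in degradation of proteins of the endoplasmic reticulum (r = 0.73), CCDC117 (r = 0.73), and DNAJB4, a J-domain cochaperone (r = 0.73). The sixth had r = 0.69. For FUBP1 they were CHORDC1, a cochaperone of HSP90 (r = 0.81), HSP90AA1, the inducible cytosolic HSP90 (r = 0.73), ABHD6, a monoacylglycerol lipase (r = 0.71), FAM63B, a deubiquitinase (r = 0.67), and SPOP, a ubiquitin ligase adaptor (r = 0.67). The sixth there had r = 0.66. All 1311 were listed by the study for a difference between states, which such a correlation shares, and the arrays also share their membrane sets and scaling.

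HSPA8 and CHORDC1 show the patterns. HSPA8 had a mean log2 level of 3.37 ± 0.28 (SD) in early and 3.32 ± 0.59 in late torpor, against 4.60 ± 0.35 in early arousal, 4.12 ± 0.64 in late arousal, and 4.54 ± 0.48 in summer. CHORDC1 was at -0.65 ± 0.43 in early torpor, -0.19 ± 0.28 in late torpor, 0.64 ± 0.26 in early arousal, 0.21 ± 0.88 in late arousal, and 0.49 ± 0.66 in summer. As for FUBP1, its mean was lowest in early torpor and highest in early arousal. With group means subtracted, r was 0.56 for TARDBP with HSPA8, 0.65 for FUBP1 with CHORDC1, and 0.60 for FUBP1 with HSP90AA1. It was lower for others of the 10, at 0.40 for TARDBP with DNAJB4, 0.43 with CCDC117, and 0.49 with DERL2, and at 0.27 for FUBP1 with SPOP and 0.40 with ABHD6, while KBTBD2 had 0.57 with TARDBP and FAM63B 0.49 with FUBP1. Crosswise, TARDBP and CHORDC1 had an r of 0.42 over all arrays and 0.03 within groups, and FUBP1 and HSPA8 0.61 and 0.22. TARDBP with HSP90AA1 had 0.67 and 0.44. FUBP1 itself ranked 216 of 1311 among the genes like TARDBP, with r = 0.36.

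**Figure D4:**
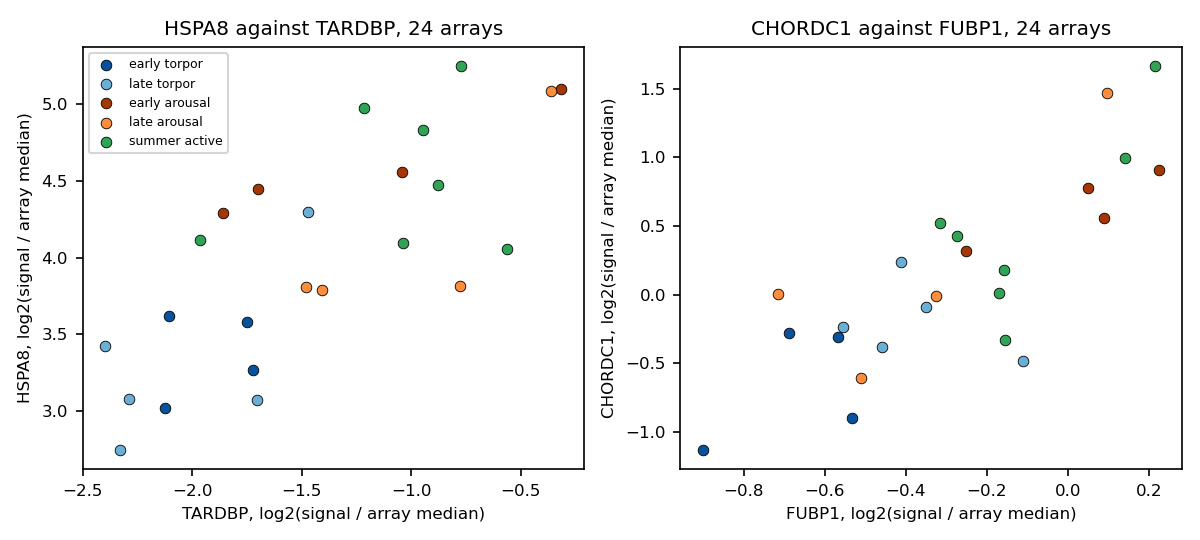
Log2 level of HSPA8 against TARDBP (left) and of CHORDC1 against FUBP1 (right) on the 24 arrays, coloured by status group. Points rise together in both panels (r = 0.76 and r = 0.81), with torpor at the lower left.

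Other RNA- and DNA-binding genes were called in both directions between torpor and summer, and the 2 called targets or partners of TDP-43 and FUBP1 were lower in torpor. Of 48 hnRNP and related genes looked for, 6 had a named probe, of 24 KH-domain or single-strand DNA-binding genes 5, of CIRBP and 4 CIRBP targets named in the study all 5, and of 26 targets or partners 4. TARDBP and FUBP1 are themselves among the CIRBP targets that the study names and are left out of that list. Of these 20 genes, 7 were higher and 5 lower in T than in P (12 of 20; 9.86 percent of all probes and 47.3 percent of the 1329 listed genes were called, with 5.5 percent of all probes higher and 4.35 percent lower). CIRBP and its 4 targets, all called here, were named by the study as changed in torpor against both other states. All 20 come from the study's list of changed genes on these arrays, so their count is not independent evidence. The share for the listed genes is the closer background, though not for those 5. In T minus A, 1 was higher and 1 lower (2 of 20; 0.469 percent of all probes and 2.33 percent of the listed genes, with 0.385 percent of all probes higher and 0.0833 percent lower). In A minus P, 3 were higher and 2 lower (5 of 20; 8.47 percent of all probes and 38.5 percent of the listed genes, with 2.61 percent of all probes higher and 5.85 percent lower). With the membrane set as a block, the counts in these 3 comparisons were 2, 4, and 0 of 20, beside 0.969, 1.29, and 2.71 percent of all probes. On A1 membranes alone they were 2, 4, and 1, beside 0.896, 1.38, and 0.876 percent.

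Among the hnRNP relatives, HNRNPA1, a splicing repressor, was higher in torpor than in summer by 0.88 (limma adjusted p = 0.00408). HNRPDL, the HNRNPD-like factor, was higher by 1.37 (limma adjusted p = 0.00222). SYNCRIP, which controls mRNA stability and translation, was lower, at -1.27 (limma adjusted p = 0.00175). Thus 2 rose and 1 fell in this fit. With the membrane set as a block none of the 3 passed, at 0.74 for HNRNPA1 (limma adjusted p = 0.200), 0.59 for HNRPDL (limma adjusted p = 0.490), and -0.62 for SYNCRIP (limma adjusted p = 0.411). HNRNPL and HNRPLL stood at 0.54 and -0.52 without passing the test, and the list's median of 0.03 lay near the median of all probes, -0.02. In T minus A, HNRNPA1 stood at 0.74 without passing (limma adjusted p = 0.0510). It passed there with the membrane set as a block, at 0.71 (limma adjusted p = 0.0433), and on A1 membranes alone (limma adjusted p = 0.0382). G3BP1, a core protein of stress granules, was lower in T than in A, at -0.83 (limma adjusted p = 0.0391), close in size to TARDBP, and its T minus P value of -0.48 did not pass. It was the 1 listed gene called lower in T than in A. Its call was lost in 12 of the 24 fits that leave out 1 array, with an adjusted p of up to 0.0697 (limma), and it passed with the membrane set as a block (limma adjusted p = 0.0171).

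In the KH-domain and single-strand DNA-binding list, neither gene that moved is a KH-domain protein. SSBP1, which coats single-stranded DNA in mitochondria, was higher in torpor than in summer by 0.88 (limma adjusted p = 0.0376). NPM1, a nucleolar chaperone, was higher by 1.24 (limma adjusted p = 7.66e-04). With the membrane set as a block both calls were lost, at 0.40 for SSBP1 (limma adjusted p = 0.775) and 0.62 for NPM1 (limma adjusted p = 0.282), and SSBP1 was also not called in 10 of the 24 fits without 1 array. QKI, a KH-domain splicing regulator, stood at -0.43, RPA2, a subunit of replication protein A, at -0.45, and SSBP2 at 0.36, none past the threshold. None of the 5 was called between T and A, with a list median of 0.15 there against 0.05 for all probes, and the list's median for T minus P was 0.36.

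CIRBP, the cold-inducible RNA-binding protein, ran opposite to TARDBP and FUBP1, at 2.40 for T minus P (limma adjusted p = 5.64e-09) and 1.38 for T minus A (limma adjusted p = 3.35e-04). Of the CIRBP targets, NNT, the mitochondrial transhydrogenase, was higher in torpor than in summer by 0.95 and THRA, a thyroid hormone receptor, by 0.58. DERL2 and the BMP signal mediator SMAD5 were lower, at -1.21 and -0.67. All 4 passed limma's test in T minus P, and none passed it in T minus A. The study named all 4 as changed in both comparisons, so passing in T minus P is not independent evidence. Its criterion for T against A differed from the limma adjustment over all probes used here, which called 0.469 percent of them. Not passing here therefore does not contradict the study's call. The T minus A differences were -0.75 for DERL2, 0.63 for NNT, -0.80 for SMAD5, and 0.34 for THRA. With the membrane set as a block, NNT still passed in T minus P, at 1.18 (limma adjusted p = 0.0428), and THRA, at 0.72, did not (limma adjusted p = 0.0744). DERL2 moved to -0.40 (limma adjusted p = 0.653) and SMAD5 to -0.11 (limma adjusted p = 0.932) in that fit, in which SMAD5 passed in T minus A, at -0.70 (limma adjusted p = 0.0442). SMAD5 was not called in T minus P in 14 of the 24 fits without 1 array, and NNT passed in T minus A on A1 membranes alone (limma adjusted p = 0.0262). The median of these 5 was 0.58 for T minus P and 0.34 for T minus A.

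Of the targets or partners, UBQLN1, a ubiquitin-binding shuttle protein, was lower in torpor than in summer, at -1.28 (limma adjusted p = 4.82e-04), and RANBP1, a regulator of nuclear transport, was at -0.72 (limma adjusted p = 0.0392). With the membrane set as a block RANBP1 turned to 0.16 and UBQLN1 stood at -0.96 without passing (limma adjusted p = 0.0876), while on A1 membranes alone UBQLN1 passed (limma adjusted p = 0.0140). RANBP1 was also not called in 13 of the 24 fits without 1 array. PFKP, a phosphofructokinase, stood at -0.63 and HDAC6, a cytoplasmic deacetylase whose mRNA TDP-43 binds, at -0.36 without passing, and the list median was -0.68. The probe named HDAC6 was very bright, with mean levels of 7.72 in T, 6.91 in A, and 8.08 in P. The hepatocyte marker TTR had 7.07, 6.32, and 7.63 there. Which transcripts the HDAC6 clone binds was not tested. Its level was lower in arousal than in summer, at -1.17 (limma adjusted p = 0.0211). In that comparison SYNCRIP was also lower, at -0.92, and HNRPDL, NPM1, and CIRBP were higher, by 0.90, 0.78, and 1.02. None of these 5 passed with the membrane set as a block, which gave -1.37 for HDAC6, -0.39 for SYNCRIP, 0.26 for HNRPDL, 0.27 for NPM1, and 0.71 for CIRBP, with limma adjusted p-values from 0.0564 to 0.801. Of all probes called between A and P, 251 were higher and 562 lower, and 513 higher and 348 lower with scaling by the upper quartile. Between T and A, 37 were higher and 8 lower, and 10 higher and 20 lower with that scaling.

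**Figure D5:**
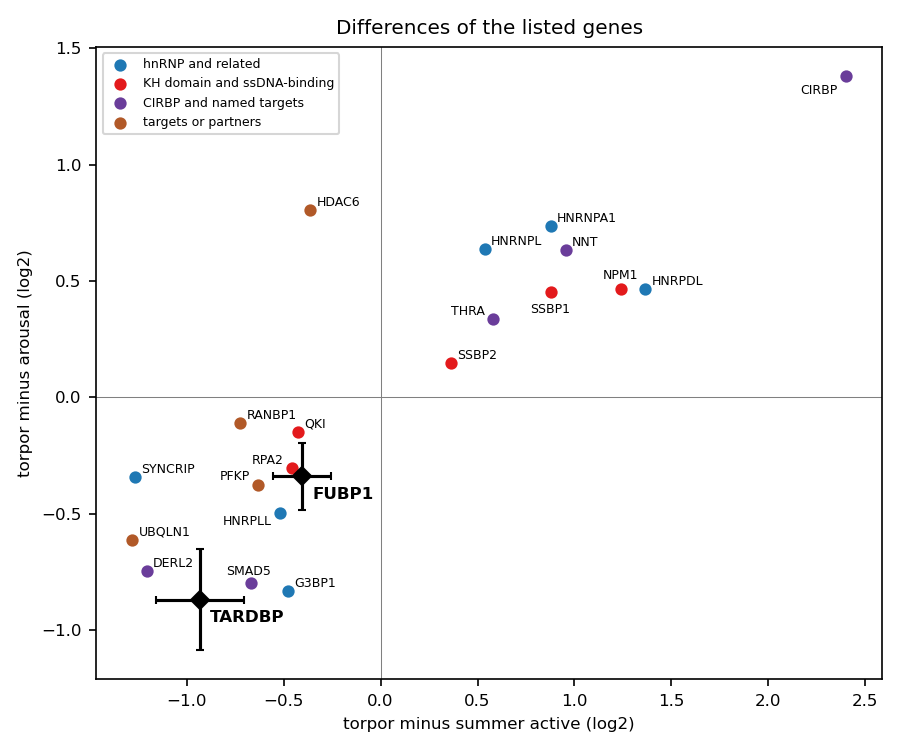
Fitted log2 difference of torpor minus summer active (x axis) against torpor minus arousal (y axis) for the 20 listed genes, coloured by list, with TARDBP and FUBP1 as black diamonds ± standard error. Both axes share the torpor arrays; CIRBP stands at 2.40 and 1.38, opposite to TARDBP at -0.93 and -0.87.

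The probes are spotted cDNA clones, TARDBP from the study's heart library and FUBP1 from its brain library. Where several probes carried the same gene, the study kept the one with the lowest p over the states, and other probes of TARDBP or FUBP1 on the array are not named here. A cDNA clone can also bind transcripts of related genes, which these arrays do not separate.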

How the data were processed

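Each of 24 membranes was imaged with a phosphorimager, and the authors deposited spot and local background intensity (median and mean pixels, not subtracted), without gene symbols. They also deposited a linear ratio of the background-subtracted median signal to the array median, with spots marked empty or at or below 0 set to 0.002. Off that floor, the ratio recomputed here from the intensities lay within 5.0e-07 of the deposited values, and it was log2 transformed. The 668 of 230400 spots at or below 0 were missing values, none of them a TARDBP or FUBP1 spot. Symbols came from the state means of the study's gene list. Of the deposited columns, 0 were left out for lack of a sample.

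All probes were fitted with limma 3.58.1 (lmFit, eBayes) in R 4.3.3 over the 3 states or 5 groups, with Benjamini-Hochberg adjustment over all probes and a threshold of 0.05. The scripts were tested on simulated data. Single values were compared by exact permutation with scipy 1.17.1, and plots drawn with matplotlib 3.10.9. The number of arrays limits precision. Replicates are separate animals, numbered in accession order, and amplification, labelling, and hybridization were done as 1 batch per the labels.

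The members and lists were chosen with earlier results of these data known. Named genes were TARDBP, FUBP1, the 5 genes of the study's list most correlated with each, and every fixed-list gene with a probe. Alternatives were normexp correction (offset 50, and none, the latter added after the data were seen), mean pixels, quantile normalization, upper quartile scaling, the floor, the deposited ratio, leaving out probes not over 2 times background on at least 7 arrays, membrane set or the prefix of the animal number as a block, A1 membranes only, and leaving out each array. No probe sequences or genome coordinates were used here.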

Additional observations from a re-analysis of the deposited data

How the results depend on the processing

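T minus P and T minus A stayed below 0 for both genes in all 35 alternatives. Small differences turned sign in some: A minus P in 5 of 35 for TARDBP and 2 for FUBP1, and for TARDBP late arousal minus P in 8, early arousal minus P in 2, and late minus early torpor in 2. Each listed-gene result called in the plain fit was tried under these alternatives, where 559 kept their call, 105 lost it, and 1 reversed. Calls gained only under an alternative were not counted. No paired analysis was possible because replicates were numbered in accession order and the labels give no shared number.

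With normexp and an offset of 50, TARDBP was at -0.32 (T minus P), -0.17 (T minus A), -0.38 (early torpor minus P), -0.27 (late torpor minus P), 0.0561 (early arousal minus late torpor), -0.30 (early torpor minus late arousal), and, reversed, 0.11 (late minus early torpor), and FUBP1 at -0.31 (early torpor minus P). The r of TARDBP was 0.53 with HSPA8 and 0.61 with KBTBD2, and the within-group r of TARDBP and FUBP1 turned to 0.21. With no offset, late minus early torpor of TARDBP turned to 0.14. On A1 membranes alone FUBP1 was at -0.51 in late arousal minus P, and 4 within-group r values turned sign, to 0.0175 (TARDBP and FUBP1), -0.0612 (FUBP1 and array median), -0.60 (TARDBP and its background), and 0.0839 (FUBP1 and its background). For FUBP1, A2 minus A1 was -0.13 within summer arrays and -0.13 to 0.30 when each array was left out. It was below 0 without late arousal replicate 2, which leaves the same summer comparison. RANBP1 turned to 0.16 in T minus P with the membrane set as a block. The cause was not tested.

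Leaving out 1 array at a time gave -1.09 to -0.85 (TARDBP) and -0.45 to -0.35 (FUBP1) for T minus P, and -0.98 to -0.76 and -0.42 to -0.28 for T minus A. Called listed genes numbered 9 to 15 in T minus P, 1 to 3 in T minus A, and 3 to 7 in A minus P. The T minus A count was 1 without early arousal replicates 3 or 4, late arousal replicate 4, early torpor replicates 2, 3, or 4, or late torpor replicates 2, 4, or 5, and the A minus P count was 3 without early arousal replicate 1, late arousal replicate 4, or summer active replicates 2, 4, 5, or 6. Called listed genes in T minus P, T minus A, and A minus P were 2, 4, and 0 with the membrane set as a block, 2, 4, and 1 on A1 alone, and 2 in A minus P when the prefix of the animal number was the block. The dim TARDBP signal in torpor limits how well its differences can be measured.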
